A study of Bos taurus with 10 samples.

Results

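The genes described here carry out or restrain programmed cell death: the BCL2 family, the caspases, the death receptor FAS with its adaptors, the proteins that mitochondria release, the inhibitors of apoptosis proteins and a few death-associated kinases and regulators. They were chosen as a list of 42 gene symbols, and a probe set counted as a member where its only symbol in the platform annotation was on that list. This gave 45 probe sets of 28 genes, out of 24016 bovine probe sets. After the dimmest 40% of probe sets were left out, 32 probe sets of 23 genes remained for testing.

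Apoptosis runs along a pair of routes. In the mitochondrial route the pore formers BAX and BAK1 open the outer mitochondrial membrane unless pro-survival relatives such as BCL2 and MCL1 hold them back, and the released proteins activate CASP9 on APAF1. In the receptor route FAS recruits FADD, which activates initiator caspases unless CFLAR blocks them. In the mammary gland, loss of milk-producing cells by apoptosis is a known part of involution after lactation, and cell death also accompanies mastitis.

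The samples were mammary gland tissue of primiparous German Holstein Frisian cows in mid-lactation. The udder of a cow holds separate glands. In the neighboring group, 1 gland had received 500 colony-forming units of E. coli 1303, and tissue was taken 24 h later from glands of the same udder that had not received bacteria. Most neighboring samples pooled a saline-treated and an untreated gland of 1 cow, and neighboring 4 was a single untreated gland. The control group came from healthy cows with no inoculation, and control 3 and control 5 are listed as single glands. The cows of the study were brought into the same estrous phase with cloprostenol and milked out with 20 IU of oxytocin. Each group had 5 arrays of the Affymetrix Bovine Genome Array, and the small number of arrays limits the precision. The study set aside neighboring 5 as a biological outlier and control 3 as a technical outlier, so the fit on the 8 remaining arrays comes first, and the fit on all 10 is given beside it for the called genes and the counts. The p-values on 8 arrays do not cover the deviation of neighboring 5.

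Values are log2 RMA values, in which 1 unit is a 2-fold difference. A gene was said to rise or fall in the neighboring glands when limma, fitted to all 14410 probe sets kept, gave an adjusted p under 0.05. On the 8 arrays 9 of the 23 measured death genes rose and 2 fell (39.1% and 8.7%). Over all 7055 genes tested, 20.2% rose and 11.5% fell. The risen genes were BAX and BAK1 among the pore formers, BCL2 and MCL1 among the survival factors, CASP4 and CASP9, FAS and FADD, and DIABLO. The fallen genes were the kinase STK17A and PDCD4. In 9 of the 23 genes all neighboring arrays of the fit lay above all its controls and in 1 below, which 21.1% and 12.4% of all genes did. The median change was 0.21 over the death genes and 0.06 over all genes. These shares and medians describe the list and were not tested against other genes.

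All 10 arrays with equal weight gave fewer calls. BAX, BCL2, CASP4 and CASP9 rose and BCL2L2 and STK17A fell, which was 4 and 2 of 23 genes against 8.26% and 5.02% of all genes. In the same 4 risen genes every neighboring array, neighboring 5 included, lay above every control array, and 4.56% of all genes had this order on 10 arrays. None of the 23 measured death genes had the opposite order, which 2.98% of all genes had. The count of called death genes on all 10 arrays changed when single arrays were left out. It was 0 without neighboring 2, neighboring 3 or neighboring 4, although 11, 10 and 11 genes then had an unadjusted limma p under 0.05. It was 2 without control 1, 3 without control 2, 1 without control 4 and 2 without control 5. Without neighboring 1 or without control 3 it was 4, and without neighboring 5 it was 12. The calls over all probe sets moved too, from 1806 on 10 arrays to 1190 without control 3 and 4290 without neighboring 5. For the other runs they are not given here, so these counts do not single out the death genes. With a quality weight for each array, estimated from the same values, all 10 arrays gave 9 risen and 3 fallen genes. The weight was lowest for neighboring 5 (0.38), then for neighboring 1 (0.48), which is in the fit on 8 arrays, and control 3 (0.56).

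**Figure D1:**
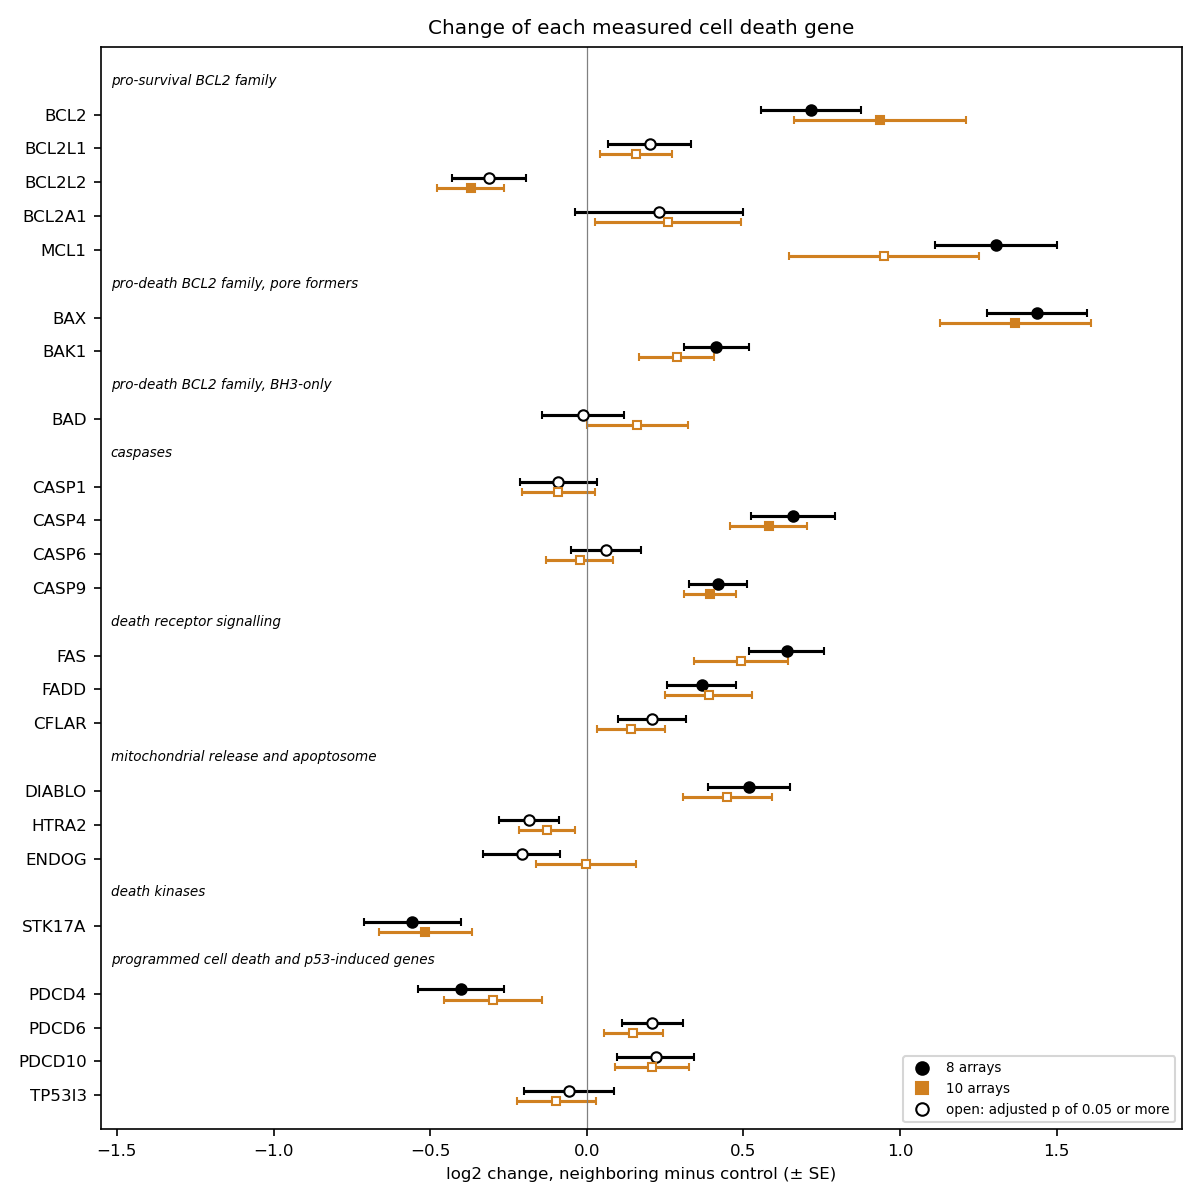
Change of each of the 23 measured death genes, neighboring minus control, on the log2 scale with its standard error, in role groups. Black circles are the 8 arrays of the study's fit and orange squares all 10 arrays; filled symbols passed an adjusted p under 0.05. BAX and MCL1 stand farthest to the right and STK17A farthest to the left.

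Other measures moved with the groups. The mean log2 signal of 14 bacterial hybridization control probe sets, which are added to the sample before hybridization, was 9.40 to 9.67 on neighboring 1 to 4 and 9.68 to 10.14 on the 4 control arrays (difference -0.44, exact two-sided permutation p = 0.0286, the smallest that 4 against 4 arrays can give). With this signal as a covariate BAX stayed past the threshold (1.65, limma adjusted p = 0.0270) and the other 10 called genes did not, each with its direction unchanged. Their changes were then 1.17 ± 0.35 SE for MCL1, 1.02 ± 0.27 for BCL2, 0.73 ± 0.22 for DIABLO, 0.71 ± 0.25 for CASP4, 0.66 ± 0.22 for FAS and 0.56 ± 0.19 for FADD, while BAK1, CASP9, STK17A and PDCD4 were at 0.23 ± 0.18, 0.40 ± 0.17, -0.33 ± 0.27 and -0.70 ± 0.22. Over all probe sets the calls went from 4283 to 191. With the phage control probe sets included, 18 in all, the difference was -0.37 (exact p = 0.0571) and BAX was again the 1 gene called. The summed level of cell type markers was lower in the neighboring group for macrophages (by 0.53, 7 of 10 listed genes measured), T and NK cells (0.51, 7 of 10), myoepithelium (0.58, 5 of 5), fibroblasts (0.65, 5 of 5) and adipocytes (1.10, 1 of 4), each with an exact p of 0.0286. Over all 10 arrays the T and NK difference was -0.36 (exact p = 0.0794) and the adipocyte difference -0.66 (exact p = 0.119). The other 3 kept an exact p under 0.05. None of the exact p-values in this paragraph was adjusted for the number of measures tested, so they do not count as calls. On neighboring 1 to 4 the macrophage sum ran from 11.09 to 11.71 and on the 4 controls from 11.77 to 12.16. The macrophage genes went both ways: CD14, AIF1 and MSR1 fell, while C1QA, C1QB and CD68 changed by 0.14, 0.34 and 0.10 without passing, and the median over the 7 genes was -0.07. The T and NK sum ran from 8.93 to 9.57 and from 9.59 to 9.87, with CD5 and GZMB under the intensity filter. The myoepithelial sum ran from 12.08 to 12.47 and from 12.57 to 13.25, and the fibroblast sum reached 12.94 on neighboring 1 to 4 and ran from 13.10 to 13.55 on the controls. For adipocytes, where FABP4 was the 1 gene measured and ADIPOQ and LEP were under the filter, the ranges were 11.29 to 11.86 and 12.59 to 13.02. The neutrophil sum, from 4 of 12 listed genes and with CXCR1 and MPO under the filter, overlapped between the groups (12.93 to 13.59 against 12.25 to 13.81, exact p = 0.600). LTF, at a mean of 13.10 over the 10 arrays against 6.49 to 6.75 for the S100 genes, made up nearly all of this sum. The sum therefore says little about the other neutrophil genes. LTF changed by 0.14 (limma adjusted p = 0.734). S100A8 rose 5.34-fold (adjusted p = 0.000361) and S100A12 3.95-fold (0.00104), with the groups apart on 8 and on 10 arrays, whereas S100A9 changed by 0.17 (0.221). The luminal epithelial sum, which includes the caseins, was 16.61 to 16.70 against 16.68 to 16.73 (exact p = 0.0571), and 7 of its 8 markers were measured, KRT8 being under the filter. The B and plasma cell sum (2 of 7 genes measured) differed by -0.36 (exact p = 0.343) and the endothelial sum (3 of 5) by 0.10 (exact p = 0.571). The difference between the 3 prime and 5 prime control probe sets, a sign of RNA quality, shifted by 0.16 for actin, -0.14 for GAPD and -0.10 for EF1A (exact p = 0.429, 0.114 and 0.229). The part of these signals in the changes below was not tested. In tissue samples, fewer cells of a type and less RNA per cell cannot be told apart.

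Both pore formers rose. BAX, which perforates the outer mitochondrial membrane, rose 2.71-fold (log2 change 1.44 ± 0.16 SE, limma adjusted p = 0.000346). Its probe set read 7.25, 7.46, 7.25 and 7.91 on neighboring 1 to 4 and 5.88, 6.31, 5.97 and 5.96 on controls 1, 2, 4 and 5, which is 7.47 ± 0.31 against 6.03 ± 0.19 (SD, n = 4). Neighboring 5 was at 6.45 and control 3 at 5.36. The lowest neighboring value was thus still above the highest control value, and the arrays that were set aside were the lowest of their groups. With all 10 arrays the change was 1.37 ± 0.24 (adjusted p = 0.0195). BAX had 1 probe set.

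BAK1, the pore former that resides on mitochondria, rose 1.33-fold (0.41 ± 0.10 SE, limma adjusted p = 0.0153). Neighboring 1 to 4 read 7.34, 7.02, 7.28 and 7.02, and controls 1, 2, 4 and 5 read 6.69, 6.84, 6.75 and 6.73. Neighboring 5, at 6.71, lay among the controls, and control 3, at 6.93, was the highest of them. With both included the groups overlapped and the change was 0.29 ± 0.12 (adjusted p = 0.120).

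Of the 7 listed BH3-only proteins, the sensors that pass death signals to the pore formers, BAD was the 1 gene with a probe set. BAD read 7.37, 7.89, 7.71 and 7.71 on neighboring 1 to 4 and 7.69, 7.88, 7.47 and 7.71 on controls 1, 2, 4 and 5, with neighboring 5 at 7.85 and control 3 at 7.00. The groups overlapped, and the change was -0.01 ± 0.13 SE (limma adjusted p = 0.953) on 8 arrays and 0.16 ± 0.16 (0.497) on 10. BID, BIK, BCL2L11, BMF, BBC3 and PMAIP1 had no probe set of their own in the annotation and were not analysed here, so the group rests on 1 gene.

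Among the 5 pro-survival relatives, BCL2 and MCL1 rose on the 8 arrays and BCL2L1, BCL2L2 and BCL2A1 did not pass the test. MCL1, a short-lived protein that binds BAK1 and BH3-only proteins, rose 2.48-fold (1.31 ± 0.19 SE, limma adjusted p = 0.00127). It read 11.19, 10.23, 11.02 and 10.88 on neighboring 1 to 4 against 9.73, 9.68, 9.38 and 9.30 on controls 1, 2, 4 and 5. Neighboring 5 was at 9.30, level with the lowest control, and control 3 at 9.78. On all 10 arrays with equal weight MCL1 did not pass (0.95 ± 0.30, adjusted p = 0.0589), and with array weights it did (1.04, adjusted p = 0.00580). BAX and MCL1 were the 2 member probe sets that met the study's stricter limits of an adjusted p under 0.01 and more than a 2-fold change on the 8 arrays, which 2.76% of all probe sets met. With all 10 arrays no member met them (0.104% of all probe sets). There 16 of the 32 member probe sets had an unadjusted limma p under 0.05, as did 4771 of all 14410.

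BCL2, the founding survival factor of the family, was read by 5 probe sets that did not move together. The brightest rose 1.64-fold (0.72 ± 0.16 SE, limma adjusted p = 0.00849), from 8.42, 8.51, 8.25 and 8.42 on controls 1, 2, 4 and 5 to 8.61, 9.18, 9.26 and 9.41 on neighboring 1 to 4. Neighboring 5, at 8.80, was above every control, and control 3, at 6.98, was far below the others. Its change over all 10 arrays was 0.94 ± 0.27 (adjusted p = 0.0462). The next brightest rose by a like amount on 8 arrays (0.71 ± 0.18, adjusted p = 0.0140), with control 3 at 8.08 among the other controls and neighboring 5, at 7.81, below all of them. Over all 10 arrays it was at 0.52 ± 0.22 (adjusted p = 0.132). The third and the fourth changed by -0.21 ± 0.12 (adjusted p = 0.196) and -0.17 ± 0.10 (0.228). The fifth was under the filter. Thus 2 of the 4 probe sets kept for BCL2 rose, and the low value of control 3 was seen on the brightest of these 4 alone.

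The other survival relatives did not pass on the 8 arrays, though BCL2L2 fell in several of the other runs. BCL2L1, which encodes BCL-XL, read 6.51, 6.95, 7.01 and 6.90 on neighboring 1 to 4 and 6.54, 6.84, 6.71 and 6.47 on controls 1, 2, 4 and 5, with neighboring 5 at 6.70 and control 3 at 6.71 (0.20 ± 0.13 SE, limma adjusted p = 0.265). BCL2L2, which encodes BCL-W, read 7.63, 7.27, 7.28 and 7.43 against 7.88, 7.83, 7.58 and 7.58, and neighboring 1 was the array above the 2 lowest controls. Its change was -0.31 ± 0.12 (adjusted p = 0.0715), and it fell on all 10 arrays, by 0.37 ± 0.11 (adjusted p = 0.0446), where neighboring 5 was at 7.29 and control 3 at 7.89. It also passed without neighboring 1 (-0.39, adjusted p = 0.0283) and with control 3 put back (-0.35, 0.0400). On the 8 arrays it passed when arrays were centred on their median (-0.36, 0.0363) and with cyclic loess (-0.38, 0.0299). With array weights on all 10 arrays its change was -0.40 (adjusted p = 0.0106). BCL2A1, a survival factor that NF-kB induces in leukocytes, had the widest scatter among neighboring 1 to 4, at 5.27, 6.86, 6.25 and 6.25 against 6.12, 5.89, 5.74 and 5.96 in the controls. Neighboring 5 was at 5.99 and control 3 at 5.62. Neighboring 1 was the lowest of all 10 arrays for BCL2A1, and the change of 0.23 ± 0.27 (adjusted p = 0.533) became 0.53 (adjusted p = 0.0404) without it and 0.00 (adjusted p = 0.990) without neighboring 2.

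**Figure D2:**
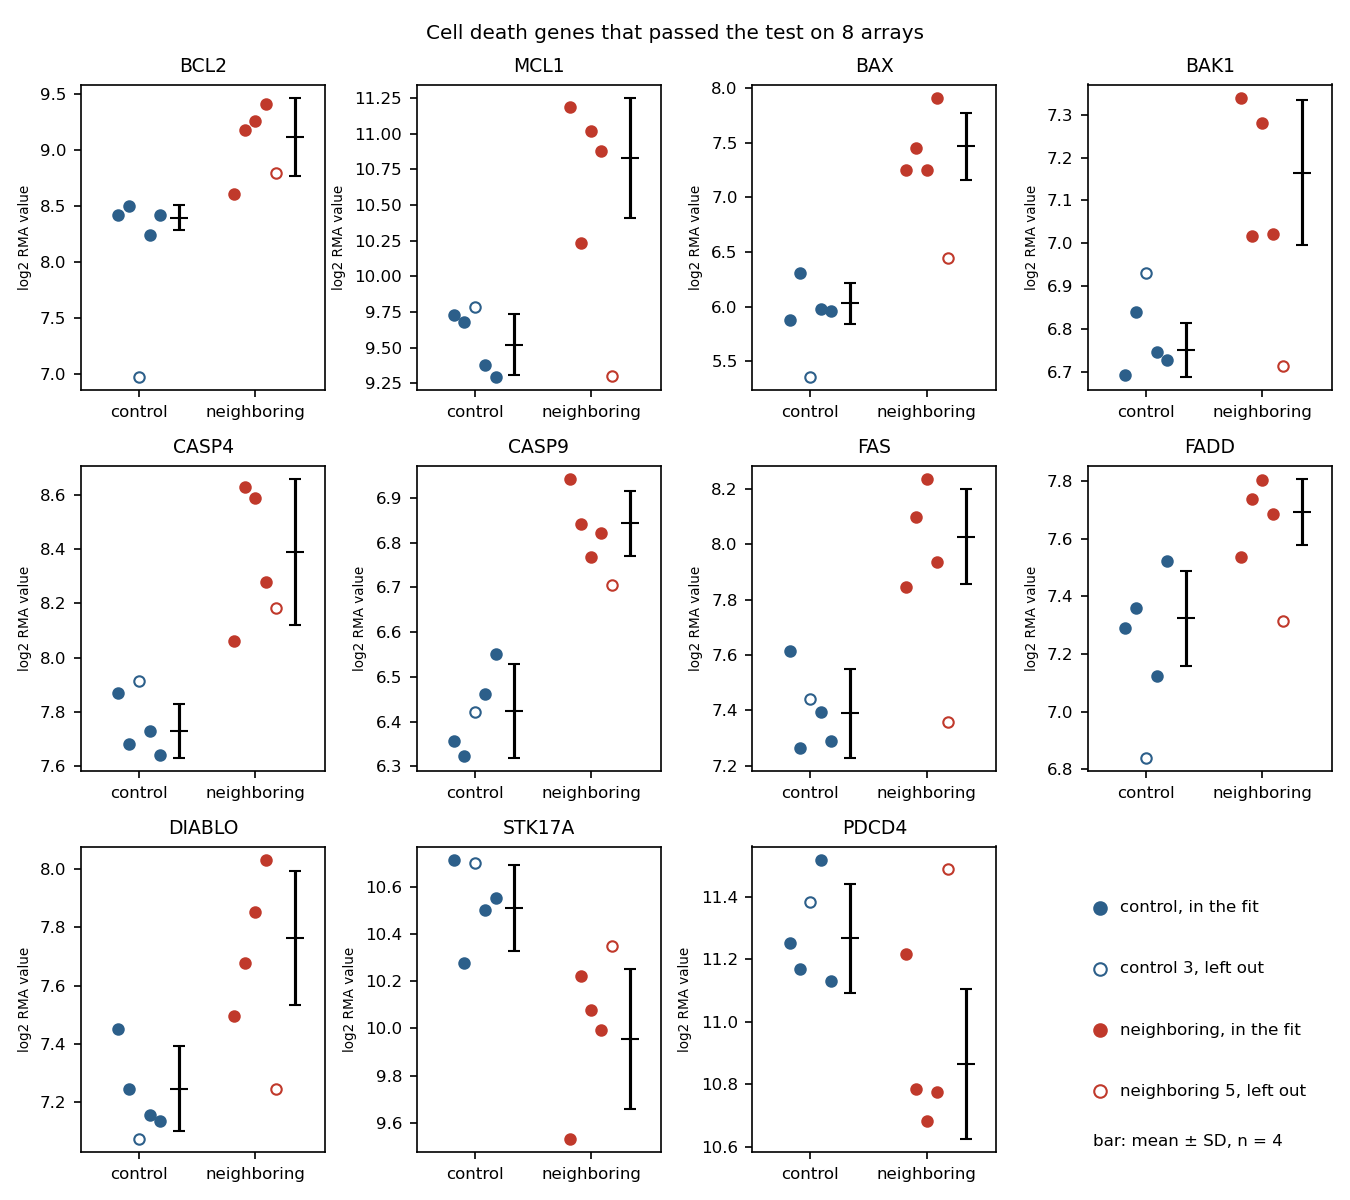
Log2 RMA values of the 11 death genes that passed the test on 8 arrays, 1 point per array, with axes scaled per gene. Filled points entered the fit, open points are control 3 (blue) and neighboring 5 (red), and bars are mean ± SD of the 4 filled points. In BAX, BCL2, CASP4 and CASP9 the open red point also lies above every control.

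BAX was also set against its opponents. The difference between BAX and each of 3 pro-survival genes was taken within each array, and its shift between the groups was tested. The pairs were chosen with the values known. The p-values below, adjusted or not, do not cover that choice and add no support to the rise of BAX. BCL2L1 changed by 0.20 and BAX by 1.44, so the shift of this pair largely repeats the rise of BAX. Relative to BCL2L1, BAX shifted upward by 1.24 on the log2 scale on 8 arrays (exact two-sided permutation p = 0.0286, 0.0429 adjusted over the 3 pairs) and by 1.21 on 10 arrays (exact p = 0.00794, adjusted 0.0238). All 5 neighboring arrays lay above all 5 controls for this pair. Relative to the brightest BCL2 probe set the shift was 0.72 on 8 arrays (exact p = 0.0286, adjusted 0.0429), and all 4 neighboring arrays were above the 4 controls. With control 3, where BCL2 was low, and neighboring 5 it was 0.43 (exact p = 0.103). Relative to MCL1 the shift was 0.13 (exact p = 0.657) on 8 arrays and 0.42 (exact p = 0.214) on 10. The neighboring arrays differed among themselves here: neighboring 2, 4 and 5 were above all controls, while neighboring 1 was below the 4 controls of the fit and neighboring 3 was below all of them but control 1.

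**Figure D3:**
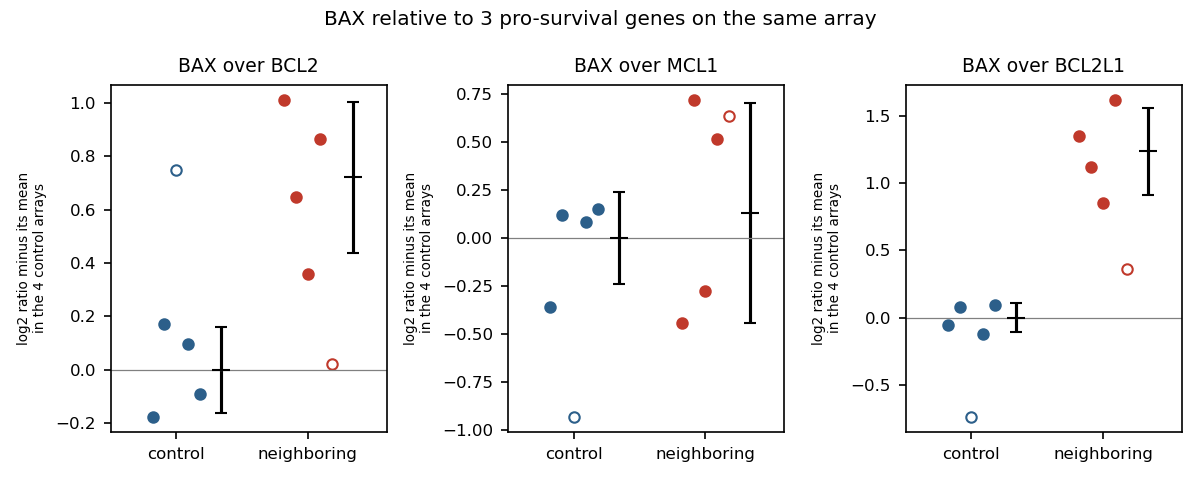
Log2 difference between BAX and BCL2, MCL1 or BCL2L1 on the same array, minus its mean in the 4 control arrays of the fit, 1 point per array. Filled points are the 8 arrays, open points control 3 and neighboring 5, and bars mean ± SD of the filled points. The groups are apart for BCL2L1 (shift 1.24) and overlap for MCL1 (shift 0.13).

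CASP4 and CASP9 rose among the 4 measured caspases, and CASP1 and CASP6 did not pass the test. CASP4, an inflammatory caspase that binds bacterial lipopolysaccharide inside the cell, rose 1.58-fold (0.66 ± 0.13 SE, limma adjusted p = 0.00572). Neighboring 1 to 4 read 8.06, 8.63, 8.59 and 8.28, and controls 1, 2, 4 and 5 read 7.87, 7.68, 7.73 and 7.64. With neighboring 5 at 8.18 and control 3 at 7.91 the groups stayed apart, and the change on all 10 arrays was 0.58 ± 0.12 (adjusted p = 0.0244). The second CASP4 probe set changed by 0.47 ± 0.17 (adjusted p = 0.0618), with overlapping groups.

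CASP9, the initiator caspase of the mitochondrial route, rose 1.34-fold (0.42 ± 0.09 SE, limma adjusted p = 0.00839). It read 6.94, 6.84, 6.77 and 6.82 on neighboring 1 to 4 and 6.36, 6.32, 6.46 and 6.55 on controls 1, 2, 4 and 5. Neighboring 5 was at 6.71 and control 3 at 6.42, so that every neighboring array was above every control by a small margin. The change on all 10 arrays was 0.39 ± 0.08 (adjusted p = 0.0244).

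CASP1, which activates interleukin 1 beta in inflammasomes and lies next to CASP4 in the RefSeq annotation of the cattle genome (assembly ARS-UCD2.0), changed by -0.09 ± 0.12 SE (limma adjusted p = 0.596). CASP6, an effector caspase, changed by 0.06 ± 0.11 (adjusted p = 0.704). The initiators CASP2, CASP8 and CASP10 had no probe set of their own in the annotation.

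FAS and its adaptor FADD rose on the 8 arrays. FAS, the receptor that starts the extrinsic route, rose 1.56-fold (0.64 ± 0.12 SE, limma adjusted p = 0.00380). Neighboring 1 to 4 read 7.85, 8.10, 8.23 and 7.93, and controls 1, 2, 4 and 5 read 7.61, 7.26, 7.39 and 7.29. Neighboring 5, at 7.36, fell among the controls, where control 3 was at 7.44. On all 10 arrays the change was 0.49 ± 0.15 (adjusted p = 0.0508).

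FADD rose 1.29-fold (0.37 ± 0.11 SE, limma adjusted p = 0.0299). It read 7.53, 7.74, 7.80 and 7.69 on neighboring 1 to 4 and 7.29, 7.36, 7.12 and 7.52 on controls 1, 2, 4 and 5, so neighboring 1 and control 5 nearly met. Neighboring 5 was at 7.31 and control 3 at 6.84, and the change on all 10 arrays was 0.39 ± 0.14 (adjusted p = 0.0781). The call was lost in 6 of the 8 fits made with 1 array removed, namely without neighboring 2, 3 or 4 and without control 1, 2 or 4 (adjusted p up to 0.0828). It was also lost when arrays were centred on their median (adjusted p = 0.0565) and with cyclic loess (0.0652). Its 2 other probe sets were under the filter.

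CFLAR, which encodes the FADD-binding inhibitor c-FLIP, had 3 probe sets that differed. The brightest changed by 0.21 ± 0.11 SE (limma adjusted p = 0.164) and the second by 0.09 ± 0.10 (0.495). The dimmest rose by 0.65 ± 0.15 (adjusted p = 0.00977), reading 6.71, 6.76, 6.72 and 6.21 on neighboring 1 to 4 against 5.73, 6.12, 6.14 and 5.82 on controls 1, 2, 4 and 5. Neighboring 5, at 6.02, and control 3, at 6.42, each lay inside the other group's range. Its change over all 10 arrays was 0.44 ± 0.18 (adjusted p = 0.108). The ligand FASLG was under the filter on both of its probe sets.

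**Figure D4:**
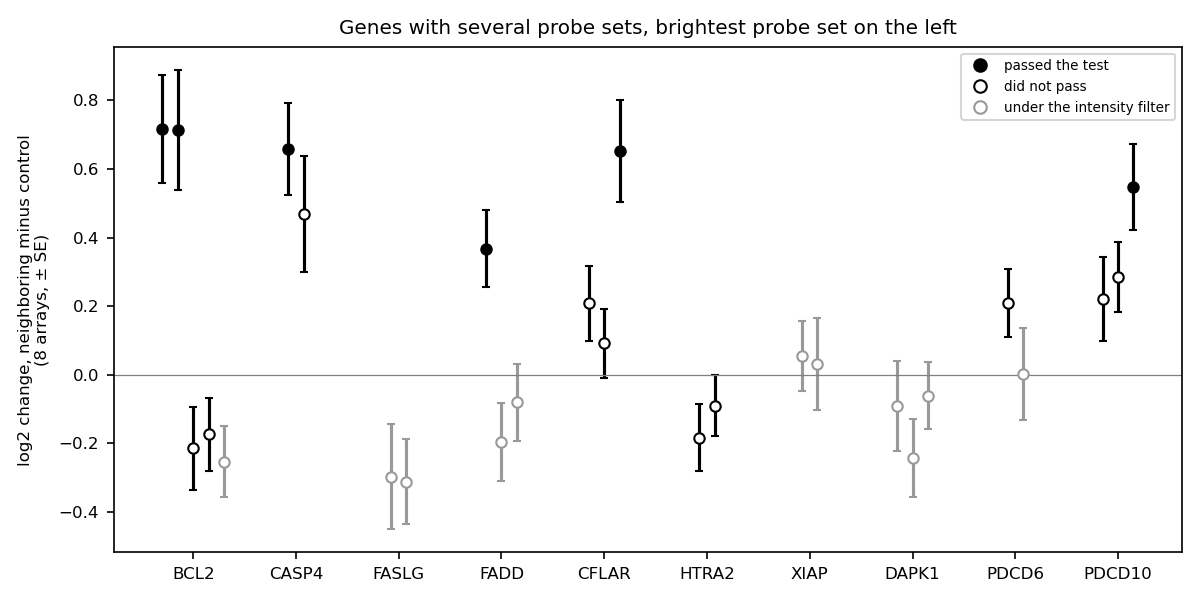
Change on 8 arrays with its standard error for each probe set of the 10 death genes that had more than 1, brightest on the left within a gene. Filled black points passed the test, open black points did not, and grey points were under the intensity filter and show the fit without that filter. For CFLAR and PDCD10 the dimmest kept probe set rose (0.65 and 0.55) and the brighter ones did not pass.

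Of the proteins that mitochondria release, DIABLO rose and HTRA2 and ENDOG did not pass the test. DIABLO, also called SMAC, displaces inhibitors of apoptosis proteins from caspases and rose 1.43-fold (0.52 ± 0.13 SE, limma adjusted p = 0.0146). It read 7.50, 7.68, 7.85 and 8.03 on neighboring 1 to 4 and 7.45, 7.24, 7.15 and 7.13 on controls 1, 2, 4 and 5. The gap between neighboring 1 and control 1 was small, and neighboring 5, at 7.25, lay among the controls, with control 3 at 7.07. On all 10 arrays the change was 0.45 ± 0.14 (adjusted p = 0.0575). The protease HTRA2 changed by -0.18 ± 0.10 (adjusted p = 0.170) on its brighter and by -0.09 ± 0.08 (0.435) on its dimmer probe set. The nuclease ENDOG changed by -0.21 ± 0.12 (adjusted p = 0.217) on 8 arrays and by 0.00 ± 0.16 (0.993) on 10. CYCS and AIFM1 had no probe set of their own, and APAF1, the scaffold of the apoptosome, was under the filter.

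The inhibitors of apoptosis proteins could not be tested after the filter. XIAP, the caspase inhibitor, was under it on both probe sets, BIRC5 on its 1 probe set, and BIRC2 had none. Fitted without the filter, BIRC5, which encodes survivin and is known as a gene of dividing cells, was at 4.81, 5.18, 4.96 and 5.28 on neighboring 1 to 4 and at 5.52, 5.69, 5.35 and 5.33 on controls 1, 2, 4 and 5. Control 3 stood far above, at 6.92, and neighboring 5 was at 5.03. BIRC5 was the 1 of the 13 member probe sets under the filter that passed without it on 8 arrays (-0.42 ± 0.13 SE, limma adjusted p = 0.0433). On all 10 arrays every neighboring value of BIRC5 lay below every control value, an order that 2.98% of the genes over the filter had. Its limma adjusted p was 0.101 there, and none of the 13 passed.

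STK17A fell and was the 1 measured kinase of its group. STK17A, a relative of the death-associated protein kinases, read 9.53, 10.22, 10.08 and 9.99 on neighboring 1 to 4 and 10.71, 10.28, 10.50 and 10.56 on controls 1, 2, 4 and 5. It fell by 0.56 ± 0.15 SE on the log2 scale (limma adjusted p = 0.0217). Neighboring 2 lay just under control 2, and neighboring 5, at 10.35, was above control 2, so that the groups overlapped on all 10 arrays, where the change was -0.52 ± 0.15 (adjusted p = 0.0447) and control 3 was at 10.70. The call was lost without control 1 (adjusted p = 0.0588) or control 5 (0.0513). DAPK1 was under the filter on 3 probe sets, and STK17B and DAPK3 had none of their own.

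PDCD4, a translation inhibitor that is a known tumor suppressor, fell by 0.40 ± 0.14 SE (limma adjusted p = 0.0487), the closest of the called genes to the threshold. It read 11.22, 10.79, 10.68 and 10.78 on neighboring 1 to 4 and 11.25, 11.17, 11.52 and 11.13 on controls 1, 2, 4 and 5, so neighboring 1 was within the control range. Neighboring 5, at 11.49, was above control 3, at 11.38. On all 10 arrays the change was -0.30 ± 0.16 (adjusted p = 0.200). The call was lost in 7 of the 8 fits made with 1 array removed, all but the fit without neighboring 1, with adjusted p from 0.0589 to 0.128. It was also lost without the intensity filter (0.0598) and with the dimmest 20% left out (0.0537).

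The remaining regulators did not pass on the probe set that stood for the gene. The calcium-binding protein PDCD6 changed by 0.21 ± 0.10 SE (limma adjusted p = 0.124) and the p53-induced oxidoreductase TP53I3 by -0.06 ± 0.14 (0.787). The adaptor PDCD10 had 3 probe sets with changes of 0.22 ± 0.12 (0.193), 0.29 ± 0.10 (0.0518) and 0.55 ± 0.12 (0.00956) from the brightest to the dimmest. The dimmest read 6.94, 6.91, 7.08 and 6.78 on neighboring 1 to 4 against 6.39, 6.48, 6.59 and 6.07 on controls 1, 2, 4 and 5, with neighboring 5 at 6.39 and control 3 at 6.42. Its change on all 10 arrays was 0.43 ± 0.14 (adjusted p = 0.0601). Counted by probe set, 12 of the 32 members rose and 2 fell on the 8 arrays (17.7% and 12% of all probe sets), and 4 rose and 2 fell on all 10 (7.16% and 5.37%).

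Role groups were set side by side by their counts and medians. On the 8 arrays 2 of 5 pro-survival genes rose with a median change of 0.23 over the 5, and 2 of 3 pro-death BCL2 genes rose with a median of 0.41. Caspases rose in 2 of 4 (median 0.24) and death receptor genes in 2 of 3 (median 0.37). Of all genes 20.2% rose, with a median of 0.06. On all 10 arrays 1 pro-survival gene rose and 1 fell, and 1 of the 3 pro-death genes and 2 of the 4 caspases rose. None of the 3 death receptor genes passed there by limma, although 2 of them had an unadjusted p under 0.05. Over all 7055 genes on 10 arrays 8.26% rose and 5.02% fell, and 2444 had an unadjusted limma p under 0.05. The mean deviation of the pro-death genes from the control mean was 0.50, 0.63, 0.59 and 0.73 on neighboring 1 to 4, and 0.18 on neighboring 5, just under control 2 at 0.19. That of the pro-survival genes was 0.20, 0.46, 0.52 and 0.53 on neighboring 1 to 4 and -0.03 on neighboring 5, while controls 1 and 2 were at 0.10 and 0.11 and control 3 at -0.24. Death receptor genes were at 0.26, 0.45, 0.51 and 0.39, with neighboring 5 at 0.05, inside the control range. Caspases were at 0.10, 0.36, 0.29 and 0.30 with neighboring 5 at 0.20, above control 3 at 0.17, so neighboring 1 and not neighboring 5 was the lowest neighboring array for that group. Neighboring 1 was the lowest of neighboring 1 to 4 in each of these groups. Averaged over all 7055 genes the same deviation was 0.05 to 0.12 on neighboring 1 to 4 and 0.01 on neighboring 5. Differences between the role groups were not tested.

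**Figure D5:**
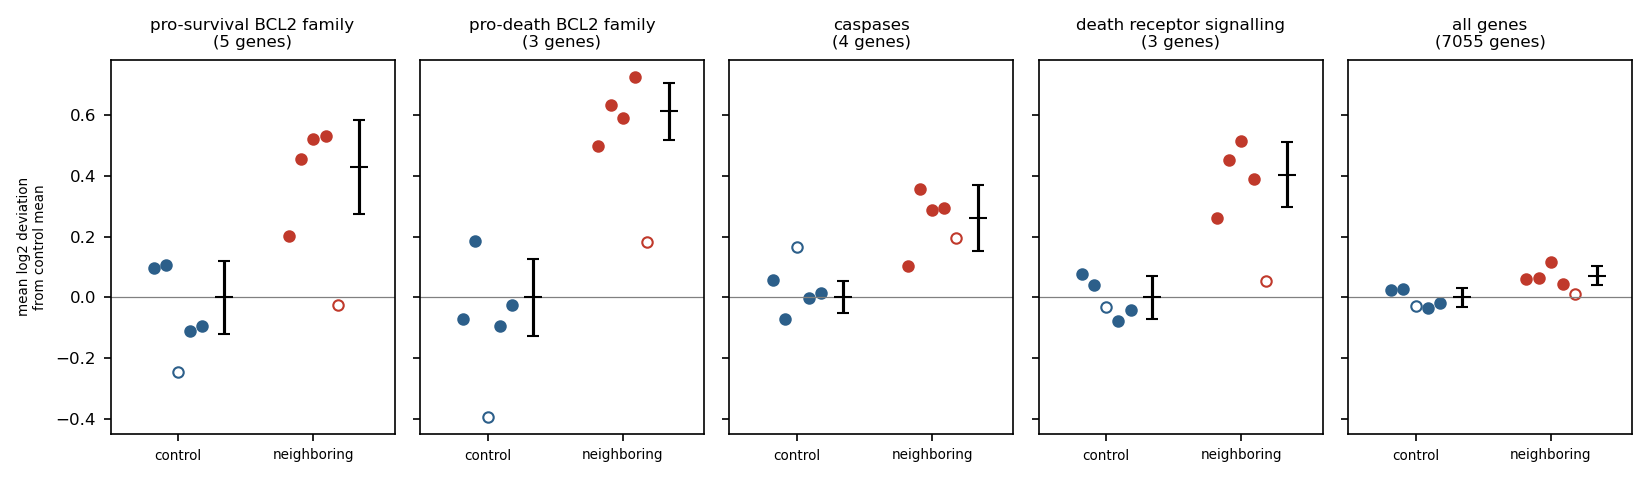
Mean log2 deviation from the mean of the 4 control arrays of the fit, for each role group and for all 7055 genes, 1 point per array. Filled points entered the fit, open points are control 3 (blue) and neighboring 5 (red), and bars are mean ± SD of the filled points. Neighboring 1 to 4 lie above the controls of the fit in the 4 role groups, and neighboring 5 lies above every control for the caspases alone.

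Other genes of the same pathways were counted from 7 lists of 130 symbols, of which 69 genes were measured. On the 8 arrays 18 of them rose and 5 fell (26.1% and 7.25%, beside 20.2% and 11.5% of all genes). Their median change was 0.19. On all 10 arrays 11 rose (15.9%) and 3 fell, beside 8.26% and 5.02% of all genes. The counts by list that follow are on 8 arrays and stand beside the 20.2% and 11.5%. Among p53 and its targets 5 of 11 rose and 1 fell. The largest were SESN1, a stress-induced regulator of growth signalling (1.94 ± 0.27 SE, limma adjusted p = 0.00101), the cell cycle inhibitor CDKN1A (1.88 ± 0.22, 0.000444) and SESN2 (1.54 ± 0.19, 0.000581). SESN1, CDKN1A and SESN2 passed on all 10 arrays too. Neighboring 5 lay within the control range of each, at 7.64, 8.32 and 6.66 against controls up to 7.75, 8.58 and 6.83. The gene of this list that fell was GADD45B. BAX is itself a known p53 target, and whether p53 had a part in any of these changes was not tested. TNF receptor and TRAIL signalling rose in 3 of 11, with the decoy receptor TNFRSF6B, which binds FASLG, at 2.35 ± 0.26 (adjusted p = 0.000346), the adaptor TRAF1 at 0.62 ± 0.10 (0.00227) and the deubiquitinase CYLD at 0.46 ± 0.12 (0.0197). CYLD did not pass on all 10 arrays (adjusted p = 0.0960). TNFRSF6B also passed on all 10 arrays (2.20, adjusted p = 0.00601). For TNFRSF6B neighboring 5 lay above every control, and for TRAF1 and CYLD it lay within the control range.

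Genes linked to death under endoplasmic reticulum stress rose in 3 of 10, led by the pseudokinase TRIB3 (1.83 ± 0.20 SE, limma adjusted p = 0.000346), the transcription factor ATF4 (0.91 ± 0.14, 0.00176) and the protease CAPN2 (0.48 ± 0.15, 0.0374). Of the other BCL2 family and BAG genes 5 of 17 rose and 2 fell. The largest changes were those of the mitophagy receptor BNIP3 (0.96 ± 0.10, adjusted p = 0.000345), the co-chaperone BAG3 (0.86 ± 0.22, 0.0168) and BNIP1 (-0.65 ± 0.13, 0.00464). Other death-associated and PDCD genes rose in 2 of 9 and fell in 2. The largest changes among those that passed were PDCD11 (0.60 ± 0.16, 0.0179), DAP3 (0.57 ± 0.10, 0.00237) and the lysosomal protease CTSD (-0.37 ± 0.09, 0.0131). By limma none of 8 other caspases, caspase substrates and inhibitors of apoptosis proteins and none of 3 genes of pyroptosis and necroptosis passed on 8 arrays. Of these 1 and 0 had an unadjusted p under 0.05, as did 3090 of all 7055 genes. Of the genes named here CAPN2 (adjusted p = 0.178), BAG3 (0.124) and PDCD11 (0.149) did not pass on all 10 arrays. Neighboring 5 lay within the control range for TRIB3, ATF4, CAPN2, BNIP3, PDCD11 and DAP3, and below every control for BAG3. For the fallen genes BNIP1 and CTSD it lay below every control, as the other neighboring arrays did.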

How the data were processed

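The study hybridized bovine mammary RNA, amplified and biotin-labelled, to Affymetrix arrays. The authors deposited log2 RMA values for 24016 probe sets besides 112 control probe sets on 10 arrays (version of RMA not given in the sources used here). Groups were taken from the sample titles, since the source label of the control samples repeats that of the neighboring ones. Array medians were 6.25 to 6.27, pairs of arrays correlated at r = 0.971 to 0.992, and no pair was identical.

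Gene names came from the platform annotation, where 13292 probe sets had 1 symbol, 86 several and 10638 none. Each gene was represented by its brightest kept probe set. The study filtered by present calls. Here probe sets were dropped when their mean over 10 arrays was under 5.71, which removed 40% of them. limma 3.58.1 in R 4.3.3 (lmFit, eBayes) compared neighboring with control arrays, with Benjamini-Hochberg adjustment over the 14410 probe sets kept. The fit was tested on simulated data. Single values were compared by exact two-sided permutation over arrays.

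The death genes, lists and markers were chosen with earlier results of these data known. Values on every array are given for member genes that passed on 8 arrays and for BCL2 family members, and for other pathway lists up to 3 genes with the largest changes that passed. PDCD10, CFLAR and BIRC5 were given values by array after their changes were seen. The hybridization control set was settled after both definitions had been computed. Alternatives covered the arrays entered, filter, scaling, variance model, replicate block, covariate and single arrays left out. Platform sequences were not used here.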

Additional observations from a re-analysis of the deposited data

Results flagged for a closer look

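In 2 of 46 groups of 5 arrays, 1 for each of the 23 death genes in each of the 2 conditions, a single array stood apart from the others of its group by Dixon's ratio, whose critical value for 5 arrays is 0.710. Chance gives about 1 in 20. For BCL2 the control 3 array was at 6.98 while the other controls were at 8.25 to 8.51 (ratio 0.832), and the second brightest BCL2 probe set had control 3 at 8.08 among the other controls. For HTRA2 the control 2 array was at 8.66 and the other controls were at 8.45 to 8.51 (ratio 0.726). HTRA2 was called on neither set of arrays.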

How the results depend on the processing

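No called death gene changed direction in any alternative run. The count of 11 genes called on 8 arrays became 6 on all 10 arrays and 4 with neighboring 5 put back. That of 14 probe sets became 6 and 4, while the calls over all probe sets went from 4283 to 1806 and 1190. With control 3 put back there were 12 genes, the 11 and BCL2L2, and 16 probe sets, beside 4290 of all probe sets. With array weights on all 10 arrays there were 12 genes and 17 probe sets, beside 4544 of all probe sets. When the hybridization control signal was added as a covariate, 1 gene and 1 probe set were called, also with the phage controls included. Calls over all probe sets were then 191, and 251 with the phage controls. At an adjusted p under 0.01 there were 8 probe sets. The count over all probe sets at this limit is not given here, so the 8 do not single out the death genes. Leaving out 1 array gave 8 to 13 genes and 11 to 18 probe sets on 8 arrays, beside 2996 to 4249 of all probe sets. On 10 arrays it gave 0 to 12 genes and 0 to 16 probe sets. The stricter limits of the study called 2 probe sets on 8 arrays and 0 on 10. BAX was under the filter that left out the dimmest 60%. Same-numbered arrays of the groups did not deviate together (r = -0.19, 0.07, -0.17, 0.02 and 0.17 for numbers 1 to 5, and 1 of the 5 neighboring arrays correlated best with its own number), so the numbers were not taken as pairs. With the replicate number as a block the fit called 2 genes and 2 probe sets on 8 arrays, and 3 genes and 4 probe sets on 10. Over all probe sets the block fit called 1481 on 8 arrays and 1161 on 10. Medians that moved by more than the spread between arrays were as follows. The pro-survival median of 0.23 was 0.46 on 10 weighted arrays, 0.72 without the dimmest 60%, 0.80 and 0.74 with the 2 covariates and 0.17 to 0.53 with 1 array left out. The pro-death median of 0.41 was 0.29 on 10 arrays, with and without the block, 0.20 without the dimmest 60%, and 0.26 and 0.25 with the covariates. The caspase median of 0.24 was 0.36 without the dimmest 60% and 0.33 with the covariate. The death receptor median of 0.37 was 0.46 with control 3 put back, and 0.56 and 0.55 with the covariates. The median over all death genes, 0.21, was 0.13 with the block on 8 arrays and 0.17 to 0.30 with 1 array left out. The medians without the dimmest 60% are over fewer genes, and the changes of the kept genes were the same as before. The cause of the other shifts was not tested. The shift of BAX relative to BCL2 missed the threshold when any 1 control array of the fit was left out (0.66 to 0.78, exact p = 0.0571 each time). Array centring and cyclic loess moved the share of higher calls over all probe sets from 59.5% to 50.2% and 51.6%.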
